A study of Mus musculus with 10 samples.

Results

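Nucleotides for new DNA and RNA are built by a short set of enzymes, several of which use carbon units carried by folate, and the transcripts of 9 of these enzymes were followed here in the quadriceps of old mice. The genes were chosen by name: Ppat, Gart, Pfas, Paics and Atic of purine synthesis, Tyms of thymidylate synthesis, and Rrm1, Rrm2 and Rrm2b, the subunits of ribonucleotide reductase. They are 9 of the 24063 gene symbols in the tables, and all 9 had enough reads to be among the 13880 genes tested. All mice were of the C57BL strain, wild type, between 17 and 20 months old and housed at most 5 to a cage. Their tibialis anterior muscle had been injured, while the sequenced RNA came from the uninjured quadriceps. The 5 mice of the 1C-MIM group received 1C-MIM, a metabolite supplement, in their drinking water for 1 to 3 months, and the 5 Control mice drank the same facility water without it. The composition of the supplement was not given in the sources used here, and no label says which mice shared a cage. Each mouse gave 1 library of total RNA, with 28521254 to 31771296 counts when 1 transcript is taken for each symbol.

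In the de novo purine pathway, a phosphorylated ribose is turned stepwise into inosine monophosphate, the precursor of both adenine and guanine nucleotides. Folate supplies a formyl group at a pair of these steps, catalysed by the products of Gart and Atic. Thymidylate synthase takes a methylene group from folate to make the thymine nucleotide, and ribonucleotide reductase makes the deoxyribose building blocks by reducing ribonucleotides. Muscle fibres no longer divide, so in this tissue the purine pathway serves mainly to replace adenine nucleotides lost during activity, and Tyms and Rrm2 are best known from cells in S phase. Rrm2b encodes the alternative small subunit of the reductase, which works outside S phase and in the upkeep of mitochondrial DNA.

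The promoters of the 4 changed genes that had one in the RefSeq table are shown because the genes moved in opposite directions. Each line is the 250 bases before the start of the gene, 5′ to 3′ on the gene's strand, in build GRCm38.p6. Ppat lies at chr5:76951579-76951828 on the minus strand, Rrm1 at chr7:102441445-102441694 on the plus strand, Rrm2 at chr12:24708004-24708253 on the plus strand and Tyms at chr5:30073626-30073875 on the minus strand. Capitals mark matches, on either strand, to CCAAT (the NF-Y box), TTTNNCGC (an E2F site), GGGCGG (an SP box), CACGTG (an E-box) or AANATGGC (a YY1 site).
Ppat: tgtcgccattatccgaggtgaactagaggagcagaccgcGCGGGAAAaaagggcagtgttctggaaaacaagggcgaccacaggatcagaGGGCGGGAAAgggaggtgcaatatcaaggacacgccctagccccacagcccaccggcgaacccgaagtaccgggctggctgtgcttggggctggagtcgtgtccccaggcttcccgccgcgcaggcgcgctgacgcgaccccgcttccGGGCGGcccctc
Rrm1: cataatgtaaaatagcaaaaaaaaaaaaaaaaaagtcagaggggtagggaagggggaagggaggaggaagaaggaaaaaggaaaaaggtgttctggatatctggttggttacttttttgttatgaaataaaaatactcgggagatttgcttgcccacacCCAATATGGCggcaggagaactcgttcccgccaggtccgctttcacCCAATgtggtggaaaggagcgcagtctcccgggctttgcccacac
Rrm2: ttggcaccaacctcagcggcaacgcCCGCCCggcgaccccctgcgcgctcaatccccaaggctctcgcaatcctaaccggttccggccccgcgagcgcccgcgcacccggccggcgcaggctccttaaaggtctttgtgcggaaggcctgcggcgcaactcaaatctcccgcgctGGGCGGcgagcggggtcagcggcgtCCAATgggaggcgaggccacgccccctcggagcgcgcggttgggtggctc
Tyms: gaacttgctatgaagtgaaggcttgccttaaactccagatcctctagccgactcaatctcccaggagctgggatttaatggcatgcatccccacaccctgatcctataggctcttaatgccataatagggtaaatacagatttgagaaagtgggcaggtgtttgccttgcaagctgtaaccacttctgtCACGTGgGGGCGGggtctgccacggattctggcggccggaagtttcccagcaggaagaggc

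Of the 9 genes, 7 had a promoter in the RefSeq table; Pfas and Rrm2b were not matched. Ppat, which rose, held 2 matches to TTTNNCGC, which occurs in 4.28% of 32851 promoter windows of the same length, and it was the 1 gene of the 7 with any. One of these matches shares bases with 1 of the gene's 2 GGGCGG boxes. Rrm1, which also rose, held 2 CCAAT boxes, 1 of them overlapping a match to AANATGGC, which is found in 3.91% of windows. Rrm2 and Tyms, which both fell, shared only the GGGCGG box, found in 32.7% of windows; Rrm2 also had a CCAAT box, found in 33.8% of windows, and Tyms a CACGTG, found in 6.02% of windows. The Atic and Paics windows held a CACGTG as well, and those of Gart, Atic and Paics each held both GGGCGG and CCAAT. A match to these letters is a description of the sequence and not a binding site.

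Of the 9 genes, 3 rose and 2 fell in 1C-MIM quadriceps by edgeR's quasi-likelihood test, at a p under 0.05 after Benjamini-Hochberg adjustment across the genes tested, and 4 did not pass it. Among all 13880 genes tested, 9.78% were called higher (1357 genes) and 11.8% lower (1642 genes), 21.6% in either direction; with library totals as the scaling, 606 were called higher and 2896 lower. The genes that rose were Pfas, Ppat and Rrm1, and those that fell were Tyms and Rrm2. Gart, Paics, Atic and Rrm2b did not pass the test. The median log2 fold change of the 9 was 0.105, against 0.001 for all genes. Values below are counts per 1000000 (CPM), scaled between libraries with edgeR's TMM factors, and are given for replicates 1 to 5 of a group in that order.

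**Figure D1:**
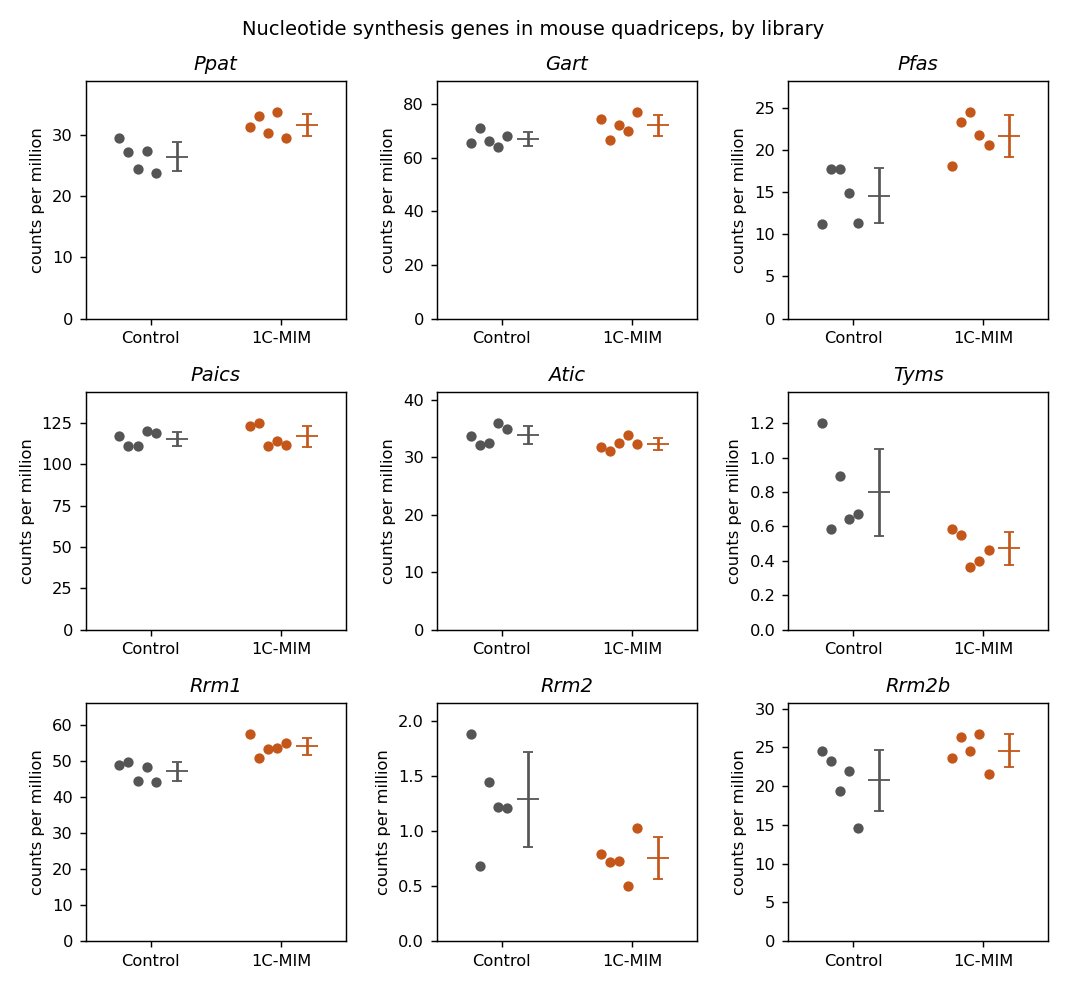
CPM of each gene in each library, with the group mean and SD beside the points and each vertical axis starting at 0. The Control and 1C-MIM points do not overlap for Pfas, Ppat and Rrm1, while the Tyms and Rrm2 groups overlap and lie near 1 CPM.

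Once divided by transcript length, the levels spanned a wide range among the 9 genes. Paics was the most abundant in Control, at 48.6 ± 1.77 CPM per kilobase (SD, n = 5), followed by Gart at 20.1 ± 0.815. Atic at 12.9 ± 0.60 and Rrm1 at 11.8 ± 0.641 came next on the same scale, and their ranges over the Control libraries met. In 1C-MIM these neighbours stood in the other order, with Rrm1 at 13.5 ± 0.597 and Atic at 12.4 ± 0.396 CPM per kilobase. Ppat at 6.60 ± 0.58, Rrm2b at 4.6 ± 0.869 and Pfas at 2.29 ± 0.51 CPM per kilobase followed in Control. Rrm2 at 0.592 ± 0.199 and Tyms at 0.210 ± 0.0664 were lowest, so the enzymes of DNA precursor synthesis that peak in dividing cells were read at a small fraction of the purine enzymes.

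Ppat (NM_172146) encodes amidophosphoribosyltransferase, the committed first step of purine synthesis. It was read at 29.5, 27.1, 24.4, 27.4 and 23.8 CPM in Control and at 31.2, 33.0, 30.3, 33.7 and 29.5 CPM in 1C-MIM. The groups only just separate, since Control 1 and 1C-MIM 5 both round to 29.5. The level rose from 26.5 ± 2.32 to 31.5 ± 1.77 CPM (SD, n = 5), a log2 fold change of 0.25 ± 0.07 (SE) with an edgeR adjusted p of 0.0208. Without 1C-MIM 4 the adjusted p was 0.0567.

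Gart (NM_010256) encodes a trifunctional enzyme whose transformylase adds the first folate-borne carbon of the purine ring. Its levels were 65.4, 71.0, 66.2, 64.0 and 68.1 CPM in Control and 74.3, 66.4, 72.2, 70.0 and 77.0 CPM in 1C-MIM. Control 2 and Control 5 lie inside the 1C-MIM range, and 4 of 5 supplemented mice lay above the Control mean. The log2 fold change was 0.10 with a 95% interval of -0.01 to 0.22 (edgeR adjusted p = 0.182).

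Pfas (NM_001159519) encodes formylglycinamidine synthase, which takes nitrogen from glutamine in the step after the first formylation. The 5 Control mice had 11.2, 17.8, 17.7, 14.9 and 11.3 CPM and the 1C-MIM mice 18.1, 23.3, 24.5, 21.8 and 20.6 CPM. Every 1C-MIM library lay above every Control library, and Control 1 and 5 were the lowest of the 10. The level rose from 14.6 ± 3.25 to 21.7 ± 2.48 CPM, which was 48.3% by the fitted fold. The log2 fold change was 0.57 ± 0.14 (SE) with an edgeR adjusted p of 0.0127, and the gene stood at percentile 97.4 of the fold changes of all genes tested. It was called in each of the 10 fits that left out a library, with adjusted p from 0.00707 to 0.033. Without Control 1 and 5 together the log2 fold change was 0.37, and the gene was still called.

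Paics (NM_025939) encodes a bifunctional enzyme that adds a carboxyl group and then aspartate to the growing ring, and Atic (NM_026195) carries out the final pair of steps, including the second folate-borne carbon. Paics was read at 117, 111, 111, 120 and 119 CPM in Control and at 123, 125, 111, 114 and 112 CPM in 1C-MIM. Its log2 fold change was 0.02 with an interval of -0.10 to 0.13 (edgeR adjusted p = 0.848), and its sign turned when 1C-MIM 2 was left out (-0.01) or library totals were the scaling (-0.06). Atic was read at 33.7, 32.1, 32.5, 35.9 and 34.8 CPM in Control and at 31.7, 31.1, 32.5, 33.9 and 32.2 CPM in 1C-MIM. Its log2 fold change was -0.07 with an interval of -0.18 to 0.05 (edgeR adjusted p = 0.385). The groups overlapped for both genes. Ppat and Paics are neighbours on opposite strands whose RefSeq models overlap at their starts. Whether the counting used strand was not given in the sources used here, so reads in that overlap cannot be told apart.

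**Figure D2:**
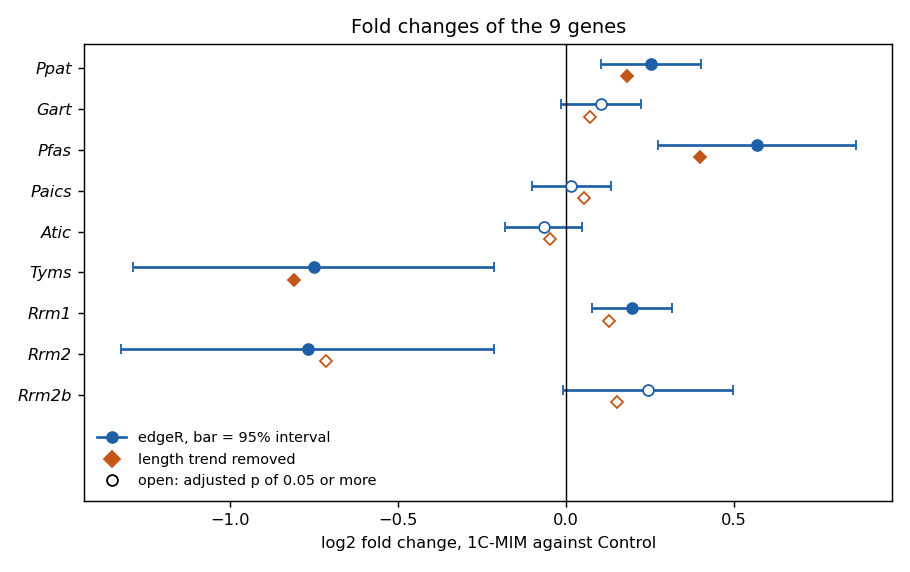
Log2 fold change of each gene in 1C-MIM against Control with its 95% interval (circles), and the same after each library's trend with transcript length was removed (diamonds); open symbols have an edgeR adjusted p of 0.05 or more. Pfas at 0.57 is the furthest to the right, Rrm2 at -0.77 and Tyms at -0.75 the furthest to the left, with the widest intervals.

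Tyms (NM_021288) encodes thymidylate synthase, the only de novo source of the thymine nucleotide. It was read at 1.20, 0.587, 0.896, 0.641 and 0.673 CPM in Control and at 0.587, 0.550, 0.365, 0.400 and 0.463 CPM in 1C-MIM, from 11 to 35 counts a library. All 5 supplemented mice lay below the Control mean, but Control 2 and 1C-MIM 1 had the same level to 3 digits. The tables hold 2 Tyms transcripts with equal counts in every library, of which 1 was used. The level fell from 0.799 ± 0.252 to 0.473 ± 0.0947 CPM, a log2 fold change of -0.75 ± 0.25 (SE) with an edgeR adjusted p of 0.0465. The 95% interval of -1.29 to -0.21 is wide at so few counts. Of the 10 fits that each left out a library, 2 kept the call, those without Control 2 and without 1C-MIM 1, and the other 8 gave adjusted p from 0.0538 to 0.111. Control 1 had the highest level, and without it the log2 fold change was -0.57.

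Rrm1 (NM_009103) encodes the large, catalytic subunit of ribonucleotide reductase, which is shared by both forms of the enzyme. It was read at 48.9, 49.6, 44.4, 48.4 and 44.2 CPM in Control and at 57.4, 50.9, 53.2, 53.7 and 54.9 CPM in 1C-MIM. The groups do not overlap, as for Pfas and Ppat; this was so for 6.6% of all genes in the higher and 7.98% in the lower direction. The level rose from 47.1 ± 2.56 to 54.0 ± 2.39 CPM, a log2 fold change of 0.20 ± 0.06 (SE) with an edgeR adjusted p of 0.0245. Without Control 3 the adjusted p was 0.0584, and without 1C-MIM 4 it was 0.0524.

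Rrm2 (NM_009104) encodes the small subunit that is made in S phase and broken down after mitosis. It was read at 1.88, 0.685, 1.45, 1.22 and 1.21 CPM in Control and at 0.794, 0.721, 0.731, 0.5 and 1.03 CPM in 1C-MIM, from 15 to 55 counts a library. Control 2 lay among the supplemented mice, while the other 4 Control libraries lay above all of them. The level fell from 1.29 ± 0.434 to 0.754 ± 0.188 CPM, a log2 fold change of -0.77 ± 0.26 (SE) with an edgeR adjusted p of 0.0485. It was called in 2 of the 10 fits that left out a library, those without Control 2 and without 1C-MIM 5, and the other 8 gave adjusted p from 0.0618 to 0.123. Without Control 1 the log2 fold change was -0.60.

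Rrm2b (NM_199476), the small subunit outside S phase and a p53 target, did not pass the test. Its levels were 24.6, 23.2, 19.4, 22 and 14.6 CPM in Control and 23.7, 26.4, 24.6, 26.7 and 21.6 CPM in 1C-MIM. All 5 supplemented mice lay above the Control mean, to which Control 5 contributed the lowest value, and the groups overlapped. The log2 fold change was 0.25 with an interval of -0.01 to 0.50 (edgeR adjusted p = 0.146). With a replicate block the gene was called (adjusted p = 0.0357).

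Set against each other per length, the small subunits gave an Rrm2b to Rrm2 ratio of 6.31, 16.3, 6.46, 8.72 and 5.82 in Control and of 14.4, 17.7, 16.3, 25.8 and 10.2 in 1C-MIM. The S-phase subunit was thus the minor one in every library. Control 2 again lay among the supplemented mice. On the log2 scale the ratio was 3.01 ± 0.61 (SD) in Control and 4.01 ± 0.49 in 1C-MIM, a description that carries no test. The ratio of Rrm1 to the sum of both small subunits stayed within 1.94 to 2.92 in Control (median 2.24) and 2.06 to 2.61 in 1C-MIM (median 2.3).

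**Figure D3:**
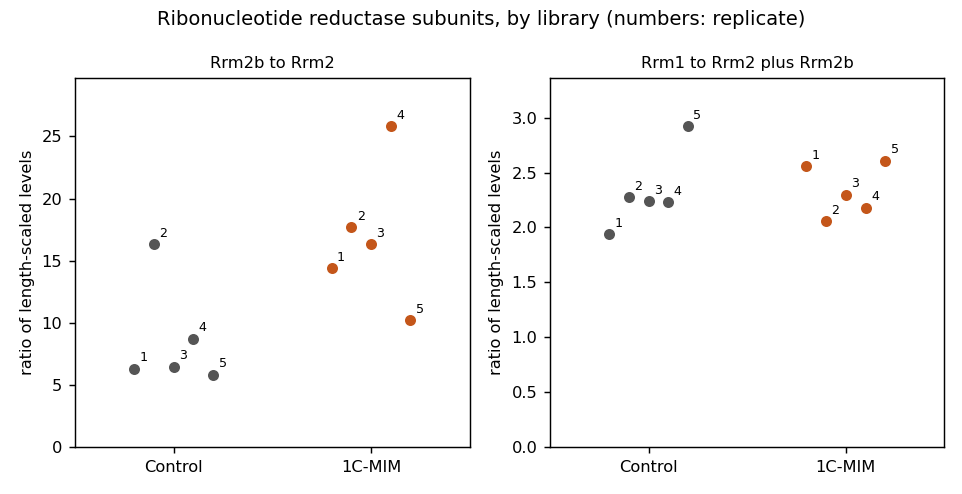
Ratios of length-scaled levels in each library, numbered by replicate: Rrm2b to Rrm2 on the left and Rrm1 to Rrm2 plus Rrm2b on the right, both axes from 0. Control 2 at 16.3 stands with the 1C-MIM libraries in the left panel, while both groups fall between 1.94 and 2.92 in the right panel.

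Fold changes over all genes moved with transcript length. In the shortest decile of the genes tested the median log2 fold change was -0.21, with 23 genes called higher and 395 lower, and in the longest decile it was 0.24, with 400 higher and 26 lower. Pfas, at 6369 bases, lies in the longest decile. Ppat, Rrm1 and Rrm2b, at 4008, 3997 and 4512 bases, lie in a decile with a median of 0.09 (204 higher and 77 lower). Tyms, at 3798 bases, has a fold change opposite to the median of its decile, 0.06, and Rrm2, at 2180 bases, lies in a decile with a median of -0.05. After each library's trend with length was removed, 6.95% of all genes were called higher and 9.31% lower. Pfas then had a log2 fold change of 0.40 (edgeR adjusted p = 0.0365), Ppat of 0.18 (adjusted p = 0.0456) and Tyms of -0.81 (adjusted p = 0.0417), all still past the threshold. Rrm1 at 0.13 (edgeR adjusted p = 0.118) and Rrm2 at -0.71 (adjusted p = 0.0713) were not.

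**Figure D4:**
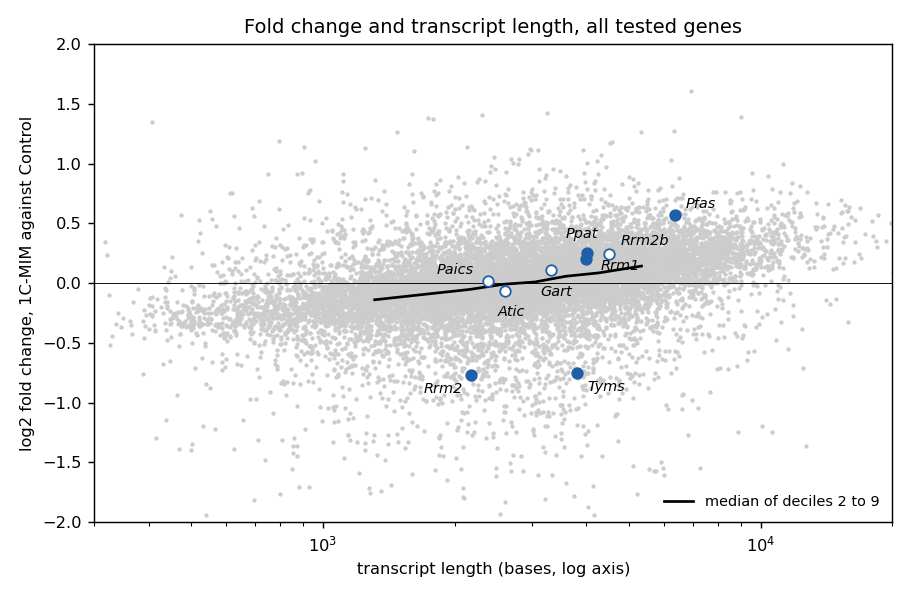
Log2 fold change against transcript length (log axis) for the genes tested (grey; genes beyond the axes are not drawn) and the 9 genes (blue, filled where called), with the median of deciles 2 to 9 by length as a line. The line climbs from -0.14 to 0.14, Pfas sits to the right above it, and Rrm2 and Tyms sit well below it.

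Genes that feed or follow these enzymes were described in lists, with counts read against the shares of all genes given above. Of 10 genes of purine branches and PRPP supply, 0 were called by edgeR or limma-voom at an adjusted p under 0.05 and 1 by DESeq2, and the median log2 fold change was -0.005. At an unadjusted edgeR p under 0.05, 2 were higher and 2 lower. Prps1, the synthase that makes the starting ribose phosphate, was at 38.9 ± 1.08 CPM in Control and 43.1 ± 1.64 in 1C-MIM (log2 fold change 0.15, adjusted p = 0.0522), and was called with the length trend removed (0.23, adjusted p = 0.00351). Adss (0.21) and Impdh1 (-0.19), which lead to adenine and guanine nucleotides, did not pass. Adss was at 9.92 ± 0.71 CPM in Control. Adssl1 of the same list was at 1110 ± 47.8 CPM in Control and 1080 ± 41.5 CPM in 1C-MIM (log2 fold change -0.04, edgeR adjusted p = 0.593). Against 11.8% of all genes called lower, 1 of 8 genes of pyrimidine synthesis fell. That was Dctd, the deaminase that supplies the substrate of thymidylate synthase, which stood at 0.747 ± 0.138 CPM in Control and 0.410 ± 0.146 CPM in 1C-MIM (log2 fold change -0.85 ± 0.26, edgeR adjusted p = 0.0327). It was called in 4 of the 10 fits that left out a library. Dut (-0.24) and Dhodh (-0.16) did not pass.

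Of 19 genes of folate cofactor supply, 1 rose and 3 fell, a share near the 21.6% of all genes called in either direction. Mthfd1, the cytosolic enzyme that makes the formyl folate used by Gart and Atic, rose from 48.6 ± 2.39 to 59.4 ± 1.16 CPM (log2 fold change 0.29 ± 0.05, edgeR adjusted p = 0.0027). Mthfd2, a mitochondrial enzyme of the same chemistry, fell from 8.2 ± 0.877 to 4.72 ± 0.548 CPM (-0.80 ± 0.11, adjusted p = 0.000497). Neither gene's groups overlap, and both stayed past the threshold without the length trend. Ggh, which removes glutamates from folates, fell (-0.51) but was not called with the length trend removed (adjusted p = 0.0597), and so did Fpgs, which adds them (-0.25; adjusted p = 0.0777 with the length trend removed).

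The counts that follow stand against 9.78% of all genes called higher and 11.8% called lower. Salvage enzymes recycle bases and nucleosides. Of 15 such genes 3 fell, Uck2 (-0.39), Uck1 (-0.27) and Aprt (-0.31), and none of these was called with the length trend removed, where the 1 call of the list was a rise of Adk, adenosine kinase (0.20, edgeR adjusted p = 0.0448, against 0.10 and 0.198 with the trend kept). Aprt was called in 4 of the 10 fits that left out a library. Of 17 genes listed under deoxynucleotide breakdown and nucleotide kinases 8 fell, with a median log2 fold change of -0.24. The list also counts Txnrd1, Txn1 and Glrx, which are neither. The 17 genes are short, with a median length of 1235 bases, and 2 fell once the length trend was removed. Among them Nme1, a nucleoside diphosphate kinase, fell from 35.0 ± 4.6 to 23.8 ± 2.74 CPM (-0.55 ± 0.10, adjusted p = 0.00257). Dctpp1, which breaks down dCTP, fell from 15.8 ± 1.11 to 11.7 ± 0.997 CPM (-0.43 ± 0.08, adjusted p = 0.00276; log2 fold change -0.23 with the length trend removed). Of 9 genes of adenine nucleotide breakdown in muscle 3 rose. Ampd1, the AMP deaminase of fast fibres that opens the purine nucleotide cycle, rose from 1090 ± 65.6 to 1740 ± 189 CPM (0.67 ± 0.08, adjusted p = 0.000172). Ampd3 rose by 0.37 on the log2 scale and Xdh, which makes uric acid, by 0.40 (adjusted p = 0.0465); Xdh was called in 3 of the 10 fits that left out a library and not with the length trend removed.

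**Figure D5:**
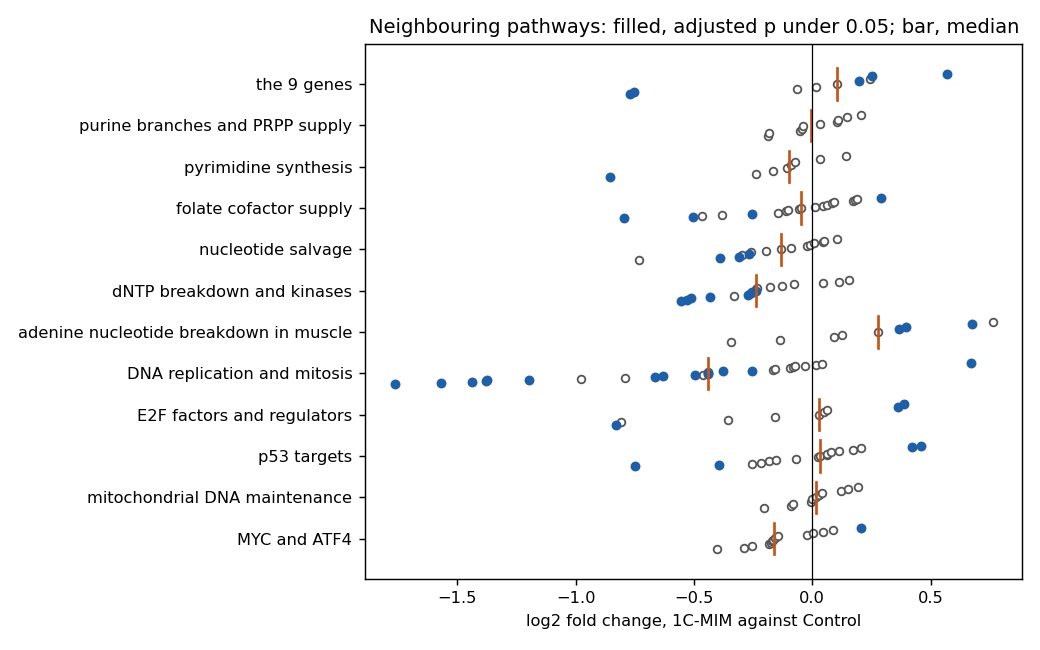
Log2 fold change of each tested gene of the pathway lists, filled where the edgeR adjusted p is under 0.05, with the list's median as a bar. The replication and mitosis genes reach furthest to the left (median -0.44), and Ampd1 at 0.67 and Pole at 0.67 are the called genes furthest to the right.

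Tyms and Rrm2 are usually read with the genes of DNA replication and mitosis. Of 30 such genes 26 were tested. Against 11.8% of all genes called lower and 9.78% higher, 13 of the 26 fell and 1 rose, with a median log2 fold change of -0.44. The summed level of the 30 was 107 to 126 CPM in Control and 96.3 to 103 CPM in 1C-MIM. Top2a, the topoisomerase that untangles replicated DNA, fell from 1.70 ± 0.40 to 0.498 ± 0.124 CPM (-1.76 ± 0.22, adjusted p = 0.000359). Mki67 (-1.20), Cdk1 (-1.57), Birc5 (-1.44), Uhrf1 (-1.38), Ccnb2 (-1.38) and Mcm5 (-0.66) fell as well. Levels were low, with Cdk1, Birc5, Uhrf1 and Ccnb2 at 0.691, 0.539, 0.973 and 0.604 CPM in Control. Without Control 1 and 5 together, Ccnb2 and Uhrf1 were not called. The 1 gene called higher was Pole, the leading-strand polymerase, which rose from 2.64 ± 0.506 to 4.20 ± 0.418 CPM (0.67 ± 0.14, adjusted p = 0.00534). The other 12 did not pass, among them Mcm2 (0.04) and Mcm4 (0.02). With the length trend removed 9 of the 26 fell and 1 rose. Of 9 tested E2F factors and their regulators, E2f2 fell (-0.83) and the pocket protein genes Rbl2 (0.36) and Rb1 (0.39) rose. Of 17 genes listed as p53 targets, Trp53 itself included, Plk2 (0.42) and Sesn1 (0.46) rose and Btg2 (-0.75) and Bax (-0.40) fell. The counts of this p53 list, and not those of the replication list, are near the shares of all genes, 9.78% higher and 11.8% lower. Bax, at 869 bases, was not called with the length trend removed (-0.20, edgeR adjusted p = 0.0628). Of 11 genes of mitochondrial DNA maintenance 0 were called by edgeR without a block, by DESeq2 or by limma-voom, and at an unadjusted edgeR p under 0.05 1 was higher and 1 lower. Ssbp1 was called lower with a replicate block (adjusted p = 0.033) and with library totals as the scaling (adjusted p = 0.0246). With neither, Ssbp1 (-0.21), Slc25a36 (0.20) and Polg (0.15) had the smallest p.

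Quadriceps RNA comes from fibres and from other cells between them, and fewer cells of a type cannot be told apart from less RNA in each. Skeletal muscle markers summed to 213000 to 237000 CPM in Control and 234000 to 267000 CPM in 1C-MIM, with 5 of 10 called higher. Of 19 macrophage and monocyte markers 17 fell, and their sum was 338 to 635 CPM in Control and 194 to 275 CPM in 1C-MIM. Control 2, the Control library in which Rrm2 and Tyms were lowest, was also the lowest Control library in this sum. Control 1, the highest for both genes, was not the highest in it, at 510 CPM against 635 CPM in Control 3. Among the 1C-MIM libraries, 1C-MIM 1 had the lowest sum, 194 CPM, and the highest Tyms level, 0.587 CPM. Its Rrm2 level, 0.794 CPM, was below that of 1C-MIM 5 only (1.03 CPM). Of 8 tested lymphocyte markers 5 fell (sums of 16.4 to 36.3 CPM in Control and 6.18 to 10.8 CPM in 1C-MIM), and in this sum Control 2 was the highest. Of 9 satellite cell and myoblast markers 4 fell, Tmem8c (-3.73), Myog (-1.26), Myod1 (-0.59) and Vcam1 (-0.31). All 4 stayed called with the length trend removed. Tmem8c was at 4.18 ± 1.92 CPM in Control and 0.308 ± 0.211 CPM in 1C-MIM. Pax7 (-0.15) and Myf5 (-0.29) did not pass. Sums of this list overlapped, at 4160 to 4930 CPM in Control and 4210 to 5290 CPM in 1C-MIM. Most of that was Des, at 4380 CPM in Control. Of 10 fibro-adipogenic markers 6 fell, with overlapping sums of 2530 to 3300 CPM in Control and 1930 to 2810 CPM in 1C-MIM. Of 10 endothelial markers 5 rose (sums of 253 to 341 CPM in Control and 344 to 392 CPM in 1C-MIM). Over all genes, 9.78% were called higher and 11.8% lower. No marker in these lists had a total of 0. The part of these cells in the changes of Tyms, Rrm2 and the other genes was not tested.

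Likeness of pattern was measured as the root mean square difference between log2 CPM centred on each gene's mean, over the 10 libraries. The genes nearest to Pfas were Kdr at 0.06, Wnk2 at 0.10 and Dot1l at 0.10. For Ppat they were Col4a3bp, Asb14 and Tapt1, all at 0.03, and for Rrm1 they were Rsrc2, Glud1 and Fxr1, at 0.03 each. Tyms stood further from its nearest genes, which were Fgfrl1 at 0.16, Tnfaip6 at 0.18 and Mmp19 at 0.18, and so did Rrm2, with Mfap5 at 0.20, Degs2 at 0.22 and Mxd3 at 0.23. Tyms and Rrm2 had only 11 to 55 counts a library, and the scatter of such low counts enters the measure. Among the 9 themselves, Gart and Rrm1 were the most alike, at 0.08, and Pfas and Rrm2 the least, at 0.84. Tyms and Rrm2 differed by 0.27, which was the smallest difference of either from any of the 9. The measure keeps the difference between the groups, so genes with like fold changes lie closer by it.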

How the data were processed

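RNA sequencing of quadriceps from 10 mice was analysed, 5 Control and 5 1C-MIM, with groups from the titles and treatment labels; the labels name Active Motif as the company that made the libraries. Per the file headers, the deposited tables list 33984 transcripts with a count, an FPKM and a TPM value. The deposited counts are whole numbers, not normalized by the authors. The deposited FPKM values, scaled by the authors to length and depth, gave transcript lengths only, and the deposited TPM values were not used. The submitters' processing notes name, with no role or order, the build GRCm39 and STAR, featureCounts of Subread 2.0.1, Salmon 1.5.2, StringTie 2.2.1, DESeq2 1.28.0, Trim Galore 0.6.7, Picard 2.27.4, bedtools 2.30.0 and SAMtools 1.15.1. Filters and strandedness were not given in the sources used here.

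For each symbol only the transcript with most counts over the libraries was kept (1 of 2 with equal counts for Tyms), which left 24063 symbols, 19459 of them with a read. After filterByExpr, 13880 genes were scaled with TMM and tested with edgeR 4.0.16 (R 4.3.3; quasi-likelihood, robust), with a prior count of 2 and Benjamini-Hochberg adjusted p under 0.05 over all genes. The SE of a log2 fold change is its size over the square root of F. The p-values measure the spread between these animals. With no cage label the fit holds no cage term, so differences between cages cannot be told apart from the supplement. The fit was tested on simulated counts.

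The 9 genes and all lists were chosen with earlier results of these data known. Named genes are the 9, the 3 genes with the smallest p of each pathway list, called list genes changed by at least 0.8 (log2) and the 3 genes nearest in pattern to each called member. Sesn1, Fpgs, Adk, Adssl1, Tmem8c, Myog, Myod1 and Vcam1 were named after their values were seen. Promoters come from RefSeq tables of GRCm38.p6. Alternatives covered scaling, filter, test (DESeq2 1.42.0, limma-voom of limma 3.58.1), blocks, summed transcripts, removal of the length trend (a spline with 3 inner knots, as offsets) and left-out libraries.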

Additional observations from a re-analysis of the deposited data

Results flagged for a closer look

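In 170 groups of 5 libraries, 9 had 1 library far from the other 4 by Dixon's test, where chance flags about 1 in 20. The Rrm2b to Rrm2 ratio in Control 2 was 16.3, against 5.82 to 8.72 in the other Control libraries; Rrm2 itself was lowest there. Control 1 was high for Cdk1 (1.27 CPM, others 0.457 to 0.649) and Ccnb2 (0.856 CPM, others 0.513 to 0.587), and low for Adss (8.66 CPM, others 10.1 to 10.4); it was also the Control library with the most Tyms and Rrm2. 1C-MIM 1 was high for Prps1 (45.9 CPM, others 41.6 to 42.6), Nme1 (28.6 CPM, others 21.9 to 23.5) and Dctpp1 (13.5 CPM, others 11 to 11.4). Control 3 was low for Ampd1 (977 CPM, others 1090 to 1140) and for the summed mitochondrial DNA maintenance genes (263 CPM, others 273 to 275).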

How the results depend on the processing

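Over the alternatives at an adjusted p under 0.05, Pfas was called in 23 of 24, Ppat in 20, Rrm1 in 17, Rrm2 in 8 of 24 and Tyms in 8 of 22. The filter of 1 CPM in 5 libraries left Tyms without a value, and summing its transcripts counts the same reads again, so neither is among the 22. With library totals as scaling, which moved the median of all genes to -0.074, 606 genes were called higher and 2896 lower, against 1357 and 1642, and 1 of the 9, Pfas, was higher, with Ppat and Rrm1 no longer called. Within animal-number series 2 alone (3 mice a group) 31 were called higher and 64 lower, with 0 of the 9 in either direction; within series 3 alone (2 mice a group) 127 and 269, with 1 of the 9 higher and 0 lower. Without Control 1 and 5 together the counts were 832 and 976, with 0 of the 9 lower. An adjusted p under 0.1 gave 2114 higher. Of the 9, 0 were lower with edgeR without a filter or with limma-voom (2 in limma-voom at an unadjusted p under 0.05), and 1 was lower with the filter of 1 CPM, DESeq2, number series as a block, summed transcripts or the length trend removed. With summed transcripts that gene was Tyms, whose reads are then counted again. Leaving out 1 library gave 739 to 1558 genes higher and 941 to 1885 lower, 1 to 3 of the 9 higher and 0 to 2 lower. With a replicate block, 1932 genes were called higher and 1965 lower and 4 of the 9 higher, Rrm2b being added (adjusted p = 0.0357); same-numbered libraries correlated at -0.075 to 0.387, 3 of 5 pairs over 0.1, so the numbers were not taken to pair the mice, and replicates 4 and 5 alone correlated best with their own number. Paics changed sign with library totals (-0.058), within series 3 (-0.078) and without 1C-MIM 2 (-0.007); leaving out other libraries gave up to 0.04. Of 62 named genes, 45 were called; over all alternatives 215 values lost the call, 37 gained it and 1288 kept their side. The causes were not tested. Counts of 11 to 55 a library limit Tyms and Rrm2.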

Other observations

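Genes of the MYC and ATF4 regulators and their targets, which can drive purine and folate enzymes, were listed as well. Of 14 tested, 1 rose, Mxi1, a MAX partner that opposes MYC (47.0 ± 2.67 to 54.1 ± 2.92 CPM, log2 fold change 0.20, edgeR adjusted p = 0.0255), and it was not called with the length trend removed (adjusted p = 0.421). Asns (-0.29) and Ddit3 (-0.25) did not pass. At an unadjusted edgeR p under 0.05, 1 was higher and 4 lower. With a replicate block, 1 was called higher and 2 lower by edgeR adjusted p. The median of the 14 was -0.16, and -0.06 with the length trend removed. The remaining marker lists had few calls: of 9 tested Schwann cell and nerve markers 1 was called higher and 1 lower (edgeR; 0 lower by DESeq2 or limma-voom, with a replicate block or with the length trend removed), of 5 tested erythroid markers 1 was higher, and of 6 adipocyte markers 1 was higher and 1 lower.

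The summed level of the 9 genes was 318 to 334 CPM in Control and 349 to 361 CPM in 1C-MIM, and the groups do not overlap; with library totals as the scaling they do, at 316 to 347 CPM in Control and 331 to 357 CPM in 1C-MIM. This sum carries no test. Paics and Gart, neither of which passed the test, make up most of it.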
